A study of Mus musculus with 2 samples.

Results

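The interferon-stimulated genes examined here are a set of 41 genes that cells switch on when they sense interferon. The members are given by gene symbol, with no threshold on a measured value. Of the 41, 39 had a row among the 32285 genes of the files; Mx1 and Mx2 had none. The 39 comprised 30 genes that are best known as targets of type I interferon (type I-like below) and 9 guanylate-binding proteins and immunity-related GTPases that are best known as targets of interferon gamma (IFN-gamma-like below: Gbp2, Gbp3, Gbp4, Gbp5, Gbp7, Igtp, Irgm1, Iigp1 and Ifi47).

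The genes were read in single-cell RNA libraries from pancreatic tumours of KPPC mice aged 6 weeks, 1 library from treatment with vehicle for 14 days and 1 from takinib at 50 mg/kg for 14 days. KPPC denotes a genetically engineered mouse model of pancreatic cancer; the labels give neither the alleles nor the Cre driver, and both libraries share the genotype. Takinib is an inhibitor of TAK1, the kinase Map3k7, which passes signals from cytokine and Toll-like receptors to NF-kB and MAP kinases. The number of mice behind each library is not given in the sources used here. With 1 library per treatment there is no replicate, so no comparison below has a test, and every interval is a 95% interval for counting error alone.

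Type I interferons bind the receptor made of Ifnar1 and Ifnar2, and a complex that includes Stat2 and Irf9 then binds a DNA element called the ISRE. Interferon gamma binds Ifngr1 and Ifngr2, and its signal reaches an element called GAS. In tumours these pathways raise antigen presentation and chemokines that attract T cells, and they also feed back through brakes such as Socs1 and Usp18.

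Both elements could be read in the promoters of the genes themselves, and 5 genes that carry the results below are shown to make this visible. All 39 genes are annotated as protein-coding, and several sit side by side: Ifit2, Ifit3, Ifit3b and Ifit1 lie in this order on chromosome 19 (GRCm38), and Gbp5, Gbp7, Gbp3 and Gbp2 on chromosome 3. RefSeq promoters (GRCm38.p6, 250 bases before to 50 bases after the start site) were matched for 30 of the 39. The ISRE core was searched on both strands as GAAA, any 2 bases and GAAA again (TTTC, any 2 bases and TTTC in reverse), and GAS as TTCNNNGAA, which reads the same on both strands. The sequences below are the 250 bases before the start site, 5′ to 3′ on the strand of the gene, and capitals mark every match of either motif, with overlapping matches run together.
Isg15, chr4:156200819-156201068, minus strand: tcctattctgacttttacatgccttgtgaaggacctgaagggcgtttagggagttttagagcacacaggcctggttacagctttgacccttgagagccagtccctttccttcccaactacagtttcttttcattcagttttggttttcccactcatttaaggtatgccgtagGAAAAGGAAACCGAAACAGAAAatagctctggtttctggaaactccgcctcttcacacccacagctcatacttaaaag
Ifit1, chr19:34640639-34640888, plus strand: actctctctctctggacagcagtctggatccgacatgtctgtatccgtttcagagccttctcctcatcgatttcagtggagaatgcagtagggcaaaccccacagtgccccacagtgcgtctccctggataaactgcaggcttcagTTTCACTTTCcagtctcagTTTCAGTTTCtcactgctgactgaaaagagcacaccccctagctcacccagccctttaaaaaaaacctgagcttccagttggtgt
Ifit3, chr19:34583279-34583528, plus strand: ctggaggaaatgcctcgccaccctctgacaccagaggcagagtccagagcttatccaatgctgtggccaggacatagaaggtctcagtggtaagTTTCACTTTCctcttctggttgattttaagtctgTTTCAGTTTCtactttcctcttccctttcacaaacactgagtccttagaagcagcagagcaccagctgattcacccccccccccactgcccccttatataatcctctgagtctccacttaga
Gbp2, chr3:142620413-142620662, plus strand: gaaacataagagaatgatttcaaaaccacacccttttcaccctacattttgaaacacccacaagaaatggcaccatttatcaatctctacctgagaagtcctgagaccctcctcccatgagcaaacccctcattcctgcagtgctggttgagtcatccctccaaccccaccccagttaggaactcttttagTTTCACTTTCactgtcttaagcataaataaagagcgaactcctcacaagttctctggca
Irf1, chr11:53769764-53770013, plus strand: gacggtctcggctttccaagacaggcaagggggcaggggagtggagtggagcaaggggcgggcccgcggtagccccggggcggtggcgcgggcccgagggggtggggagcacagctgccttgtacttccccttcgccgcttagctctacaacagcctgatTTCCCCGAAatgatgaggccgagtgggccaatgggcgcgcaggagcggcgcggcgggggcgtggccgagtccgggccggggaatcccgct
The capitals are 3 overlapping ISRE cores in Isg15, 2 separate cores in Ifit1 and in Ifit3, 1 core in Gbp2, and a GAS match alone in Irf1, whose other start site in the table has neither. The ISRE core was found in 13 of 23 type I-like and in 6 of 7 IFN-gamma-like genes with a promoter, against 4.0% of 26742 genes. GAS was found in 6 of the 23 and 3 of the 7, against 9.60% of all genes. An NF-kB motif, GGGA followed by any base and TTTCC, was found in 1 of the 30, Gbp5, against 0.471% of all genes. Neither the ISRE core nor GAS was in the window of Irf7, which says only that these letters are not there.

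Cells were kept with at least 1000 unique molecular identifiers (UMIs, each standing for 1 captured transcript), at least 500 genes and at most 20% mitochondrial UMIs, which left 9558 vehicle and 25183 takinib cells after removal of likely doublets. Clusters were made without the 41 genes or their pathway and named by markers, with "-like" for a class so named. The kept vehicle cells held 42000538 UMIs and the takinib cells 119726977, at medians of 3556 and 2887 per cell. The libraries shared 400 barcodes among cells past the filters (4.05% of vehicle and 1.49% of takinib), and their median mitochondrial shares were 8.70% and 1.79%. Neutrophil-like cells made up 271 vehicle and 7987 takinib cells, and outside them all 9 neutrophil markers or, in vehicle T-like cells, 8 of 9, had counts: their summed level in the other 6 classes compared ran from 138 to 984 CPM (UMIs scaled to a common total for each class) in vehicle and from 6334 to 48230 in takinib. Y-linked UMIs were found in 3255 vehicle cells and in 0 takinib cells, while 1075 vehicle cells had Xist and no Y-linked UMI, so Y-linked expression was found in the vehicle library alone. Treatment, sex, mouse and library therefore cannot be told apart, and the values of vehicle cells with Xist are given beside the results they move. Cells that formed no clearly named cluster were 2.00% of vehicle and 31.2% of takinib cells. The largest such cluster in takinib, led by Chil1, scored highest for neutrophil markers and held 2 vehicle and 4312 takinib cells. The next, led by U90926, scored highest for macrophage markers and held 15 and 2449. The neutrophil-like and macrophage-like values leave these cells out.

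For each class, levels are CPM within that class, and a ratio is the log2 of takinib over vehicle. The summed type I-like level was highest in endothelial-like cells of both libraries among 7 classes that reached 50 cells per library, and lowest in epithelial-like cells. In endothelial-like cells it was 1037 CPM in vehicle and 981 in takinib, and in epithelial-like cells 286 and 381. In T-like cells the summed type I-like level was 696 CPM in vehicle and 948 in takinib, a log2 ratio of 0.45 (interval 0.29 to 0.61). The T-like cluster had Cd3d, Il17a, Cd8b1 and Gzma among its leading genes, so several kinds of lymphocyte may be mixed in it. Whether that mix differed between libraries was not tested. Epithelial-like cells had a ratio of 0.41 (0.35 to 0.47), and macrophage-like cells went from 595 to 662 CPM, a ratio of 0.15 (0.12 to 0.19). The sum in B-like cells was 750 CPM in vehicle and 831 in takinib, 0.15 (-0.03 to 0.33). Fibroblast-like cells had 714 CPM in vehicle and 585 in takinib (-0.29, -0.37 to -0.20). Neutrophil-like cells had 962 CPM in vehicle and 835 in takinib, a ratio of -0.20 (-0.35 to -0.05), but their median gene had a ratio of -0.61, and with that median set to 0 the type I-like ratio was 0.40.

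The IFN-gamma-like sum followed another order. It was 124 CPM in vehicle and 211 in takinib neutrophil-like cells, a ratio of 0.76 (0.35 to 1.21). Endothelial-like cells had 328 and 427 CPM (0.38, 0.18 to 0.58), and epithelial-like cells 50.3 and 68.1 (0.44, 0.30 to 0.58). In fibroblast-like cells the sum was 262 CPM in vehicle and 177 in takinib (-0.57, -0.72 to -0.42). The ratios in macrophage-like cells (0.04, from 170 to 175 CPM), T-like cells (-0.03, from 384 to 376) and B-like cells (-0.10, from 242 to 226) had intervals that included 0. Against vehicle cells with Xist the macrophage-like ratio was 0.26 (0.11 to 0.41). T-like cells thus held a higher type I-like sum in takinib and an IFN-gamma-like sum at about the same level, while neutrophil-like cells held a higher IFN-gamma-like sum.

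**Figure D1:**
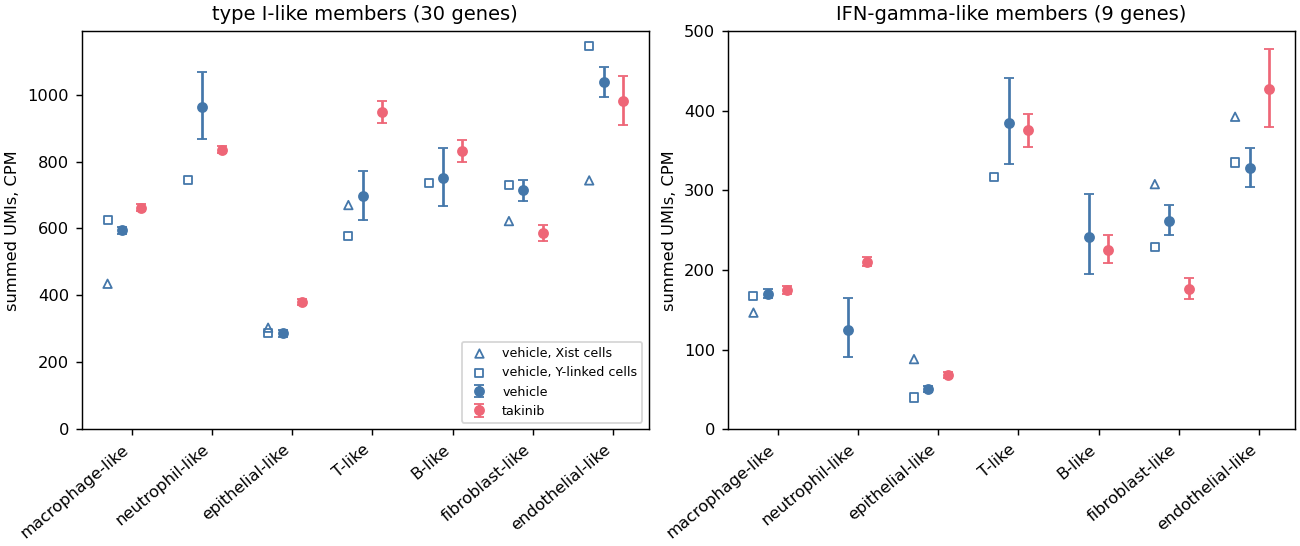
Summed level of the 30 type I-like genes (left) and the 9 IFN-gamma-like genes (right) in 7 cell classes, in CPM within the class, for vehicle (blue) and takinib (red) with 95% counting intervals. Open triangles and squares are the vehicle cells with Xist or with Y-linked UMIs alone, drawn where the sum held at least 30 UMIs; in macrophage-like and endothelial-like cells the triangle of the type I-like panel lies below the square.

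Vehicle cells with Xist and vehicle cells with Y-linked UMIs also differed from each other in some classes. In vehicle macrophage-like cells the type I-like sum was 435 CPM in 532 cells with Xist and 625 in 1320 cells with Y-linked UMIs, a log2 difference of 0.52 (0.43 to 0.62). Against the Xist cells alone, takinib macrophage-like cells had a ratio of 0.61 (0.52 to 0.70). Xist and Y-linked cells also lay in different proportions in the macrophage-like clusters. The cluster led by Chil3 held 296 of the Xist and 149 of the Y-linked cells, and that led by H2-Ab1 held 185 and 1021. The vehicle type I-like sums of these clusters were 462 and 625 CPM, and the part of this in the difference was not tested. In epithelial-like cells the IFN-gamma-like sum was 88.1 CPM in vehicle Xist cells and 39.8 in Y-linked cells, and against the Xist cells the takinib ratio was -0.37 (-0.64 to -0.09), which turns the direction. Endothelial-like cells had 744 CPM of type I-like UMIs in vehicle Xist cells and 1146 in Y-linked cells, and the takinib ratio against the Xist cells was 0.40 (0.12 to 0.69), again the other direction. Their IFN-gamma-like sum was 393 CPM in vehicle Xist cells. Against these the takinib ratio was 0.12 (-0.27 to 0.53), an interval that includes 0. In fibroblast-like cells the IFN-gamma-like ratio against Xist cells was -0.80 (-1.06 to -0.54), in the same direction as against all vehicle cells, and the type I-like ratio was -0.09 (-0.26 to 0.09), an interval that includes 0.

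A gene was compared in a class where the mean of its 2 levels was at least 10 CPM, and was counted as past 2-fold where its log2 ratio was 1 or more in size. In macrophage-like cells 24 of the 39 genes were compared, and 3 were past 2-fold higher (Isg15, Irf7 and Rtp4) where 3.69% of all genes compared were, and 1 lower (Gbp3) where 2.47% were. In T-like cells 7 of 27 were past 2-fold higher (Ifit1, Ifit2, Ifit3, Irf7, Rtp4, Xaf1 and Ifi35) and 0 lower, against 6.80% and 7.13% of all genes. In epithelial-like cells 4 of 14 were higher (Isg15, Oasl1, Oasl2 and Gbp2) and 0 lower, against 4.51% and 5.52%. In neutrophil-like cells 6 of 27 were higher (Oas3, Ifi204, Rtp4, Gbp2, Gbp5 and Ifi47) against 6.68% of all genes, and 3 lower (Oasl2, Cmpk2 and Ifi35) against 31.6%. These shares are of genes that passed the level filter, so a gene that was high in 1 library alone could pass through it.

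In B-like cells 4 of 29 genes were higher (Rsad2, Ifi204, Rtp4 and Gbp2) and 1 lower (Eif2ak2), against 11.5% and 12.3% of all genes, so the share that was higher lay near the background. In fibroblast-like cells 0 of 25 were higher and 4 lower (Stat2, Irf9, Igtp and Iigp1), against 5.99% and 10.3%. In endothelial-like cells 0 of 27 were higher and 1 lower (Ifi44), against 6.89% and 10.8%. The median ratio of the genes compared was 0.12 in T-like cells beside -0.09 for all genes, 0.23 beside -0.14 in epithelial-like, 0.09 beside 0.04 in macrophage-like, 0.09 beside -0.61 in neutrophil-like, -0.10 beside -0.16 in B-like, -0.37 beside -0.13 in fibroblast-like and 0.03 beside -0.15 in endothelial-like cells. Ifit3b, Dhx58 and Usp18 were compared in none of the 7 classes, with 43, 210 and 152 UMIs in all kept vehicle cells and 248, 675 and 591 in takinib.

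**Figure D2:**
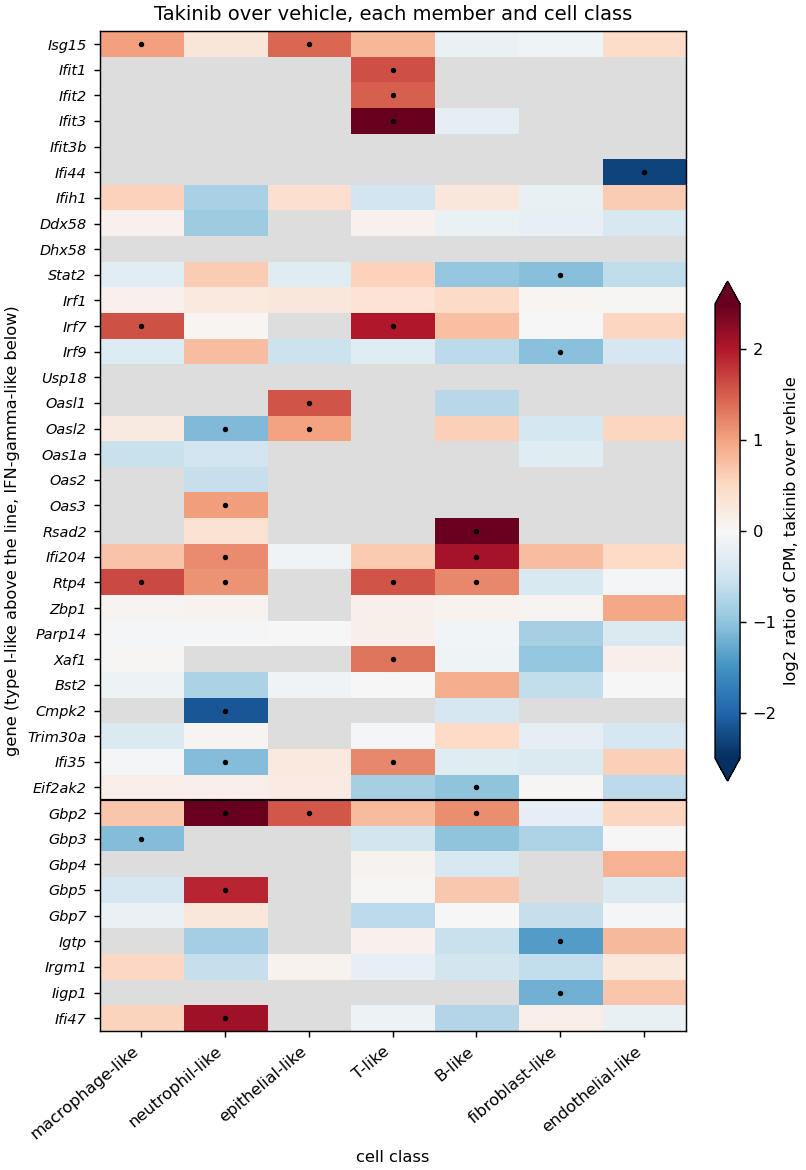
Log2 ratio of takinib over vehicle for each of the 39 genes (rows; type I-like above the line, IFN-gamma-like below) in 7 cell classes (columns); colour gives the ratio, a dot marks a ratio past 2-fold and grey a gene below 10 CPM on average. T-like cells carry 7 dots, all red, and fibroblast-like cells 4, all blue.

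Of 18 type I interferon genes, 6 had any UMI among the kept cells. Ifnb1, the first type I interferon that most cells make, had 2 UMIs in all kept vehicle cells and 2 in takinib, and 12 of the 13 Ifna genes with a row had 0 in both, the exception being Ifna16 with 1 vehicle UMI. Ifng, the single type II interferon, was found in T-like cells with 1 UMI in vehicle (1.90 CPM) and 90 in takinib (26.3 CPM), a log2 ratio of 3.79 (1.28 to 9.11). In macrophage-like cells Ifng had 0 and 1 UMI, and in neutrophil-like cells 0 and 2. T-like cells thus held 90 of the 93 Ifng UMIs among all kept takinib cells.

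Receptor genes were measured in every class. Ifnar1 was at 42.1 CPM in vehicle and 47.4 in takinib macrophage-like cells, and at 44.5 and 38.4 in epithelial-like cells. Ifnar2 was at 100.2 CPM in vehicle and 133 in takinib macrophage-like cells, and at 87.3 and 165 in neutrophil-like cells (ratio 0.92, 0.42 to 1.46). Ifngr1 was at 235 and 284 CPM in macrophage-like cells and at 112 and 67.7 in fibroblast-like cells (-0.72, -0.96 to -0.48). Ifngr2 was at 30.7 CPM in vehicle and 68.4 in takinib epithelial-like cells, a ratio of 1.16 (0.99 to 1.33). Fibroblast-like cells thus had the lowest Ifngr1 ratio of the 7 classes, and Ifngr2 was past 2-fold higher in epithelial-like cells. Whether receptor levels bear on the sums was not tested. Il10rb, which interferon lambda and interleukin 10 receptors share, was past 2-fold higher in neutrophil-like (55.5 and 113 CPM) and B-like cells (22.9 and 99.6 CPM). Ifnlr1, the other chain of the interferon lambda receptor, was under 10 CPM on average in all 7 classes.

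Genes that act downstream of the receptors differed by class. Socs1, a brake on Jak kinases, was at 20.9 CPM in vehicle and 57.6 in takinib T-like cells (1.46, 0.59 to 2.49) and, in the other direction, at 63.5 and 22.3 in neutrophil-like cells (-1.51, -2.09 to -0.85). Cxcl10, a chemokine that both interferons induce, had 2 and 87 UMIs in T-like cells (3.80 and 25.4 CPM) and 40.2 and 16.2 CPM in fibroblast-like cells (-1.31, -1.78 to -0.85). Cxcl9, induced mainly by interferon gamma, was at 38.5 CPM in vehicle fibroblast-like cells and 0.797 in takinib, from 111 and 3 UMIs, a ratio of -5.59 (-7.89 to -4.01). In fibroblast-like cells both chemokines therefore lay on the same side as Igtp and Iigp1, and in T-like cells Cxcl10 and Socs1 on the same side as Ifng. The IFN-gamma-like sum in T-like cells did not share that side (-0.03). In neutrophil-like cells Socs1 and the IFN-gamma-like sum (0.76) lay on opposite sides. Whether any of these differences are linked was not tested. Of 44 further interferon-induced genes on a separate list, 33 were compared in T-like cells, with 4 past 2-fold higher (6.80% of all genes were) and 1 lower (7.13%), and 29 in fibroblast-like cells, with 3 higher (5.99%) and 5 lower (10.3%). In neutrophil-like cells 5 of 24 were higher (6.68%) and 5 lower (31.6%), and in B-like cells 5 of 30 were higher (11.5%) and 4 lower (12.3%). Macrophage-like cells had 2 higher (3.69%) and 3 lower (2.47%) of 26, epithelial-like cells 1 higher (4.51%) and 2 lower (5.52%) of 17, and endothelial-like cells 4 higher (6.89%) and 3 lower (10.8%) of 26.

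Among the transcription factors of the set, Irf7, the amplifier of type I interferon production, was past 2-fold higher in 2 of the 6 classes where it was compared. It was at 5.58 CPM in vehicle and 16.9 in takinib macrophage-like cells, a ratio of 1.60 (1.30 to 1.90), and the vehicle level was 5.91 in Xist and 4.43 in Y-linked cells. In T-like cells Irf7 had 4 UMIs in vehicle and 104 in takinib, 7.61 and 30.4 CPM (2.00, 0.60 to 3.90). In neutrophil-like cells it was at 18.5 and 19.2 CPM, in epithelial-like cells at 5.74 and 11.6, and in fibroblast-like cells at 14.9 in both. The epithelial-like levels also differ by more than 2-fold but average under the 10 CPM needed for a comparison. Irf7 was thus higher in takinib macrophage-like, T-like and epithelial-like cells and at one level in fibroblast-like cells.

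Stat2 and Irf9, parts of the complex that binds the ISRE, did not share that direction. Stat2 was at 27.2 CPM in vehicle and 22.6 in takinib macrophage-like cells (-0.27, -0.44 to -0.11), at 16.1 and 13.1 in epithelial-like cells, at 15.2 and 22.8 in T-like cells and at 10.6 and 16.4 in neutrophil-like cells, the last from 4 vehicle UMIs. In fibroblast-like cells Stat2 was at 30.5 and 14.6 CPM (-1.06, -1.58 to -0.56) and Irf9 at 28.1 and 13.5 (-1.05, -1.59 to -0.53). Irf9 was lower in 6 of the 7 classes and Stat2 in 5 of 7. In B-like cells Stat2 was at 63.6 and 32.7 CPM, and in endothelial-like cells at 44.2 and 28.5.

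Irf1, the factor most directly induced through GAS and the gene whose promoter above holds a GAS match alone, was higher in takinib in 7 of 7 classes but past 2-fold in 0. It was at 30.7 and 32.9 CPM in macrophage-like cells (0.10, -0.05 to 0.25), at 24.6 and 29.9 in epithelial-like cells (0.28, 0.08 to 0.49), at 85.6 and 109 in T-like cells (0.35, -0.10 to 0.83) and at 82.0 and 96.9 in neutrophil-like cells (0.24, -0.27 to 0.80). Only the interval in epithelial-like cells lay above 0 among the 7 classes, and with the neutrophil profile subtracted from those cells takinib Irf1 was at 25.4 CPM.

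Among the antiviral effectors, Isg15, a ubiquitin-like protein joined to other proteins after interferon, was compared in all 7 classes and was higher in takinib in 5. It was at 17.9 CPM in vehicle and 36.5 in takinib macrophage-like cells, a 2.04-fold difference (log2 1.03, 0.85 to 1.2). In epithelial-like cells it was at 9.83 and 26.6 CPM (1.43, 1.14 to 1.74), although 1 takinib cell held 92 of the 567 UMIs. In T-like cells Isg15 was at 34.2 and 60.8 CPM (0.83, 0.13 to 1.61), and in neutrophil-like cells at 58.2 and 71.7 (0.30, -0.30 to 0.98), where 1 vehicle cell held 12 of 22 UMIs. In fibroblast-like cells it was at 48.5 and 45.1 CPM and in B-like cells at 43.2 and 38.6, and in endothelial-like cells it was at 36.2 and 49.8. Isg15 was therefore past 2-fold in macrophage-like and epithelial-like cells alone among the 7 classes. Neutrophil markers were higher in the same takinib cells (364 and 6334 CPM in macrophage-like, 138 and 10057 in epithelial-like); with the neutrophil profile subtracted, takinib Isg15 was at 35.0 CPM in macrophage-like cells, which is under 2-fold, and at 23.5 in epithelial-like cells, still past it.

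Of the Ifit genes, whose proteins bind foreign RNA, Ifit1, Ifit2 and Ifit3 passed the level filter in T-like cells, and Ifit3 also in B-like cells (12.7 and 10.7 CPM). In T-like cells Ifit3 had 1 UMI in vehicle and 94 in takinib, 1.90 and 27.5 CPM (3.85, 1.34 to 9.17). Ifit1 had 4 and 80 UMIs, 7.61 and 23.4 CPM (1.62, 0.21 to 3.53), and Ifit2 had 3 and 55, 5.71 and 16.1 CPM (1.5, -0.13 to 3.82). The 94 Ifit3 UMIs were spread over 76 takinib cells, with at most 4 in 1 cell. Ifit3 and Ifit3b are near-identical copies, so reads may have been split between them or lost.

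Other effectors with a higher level in takinib T-like cells were Xaf1, a promoter of cell death, Rtp4, a receptor-transporting protein that interferon induces, and Ifi35. Xaf1 was at 17.1 CPM in vehicle and 43.0 in takinib (1.33, 0.36 to 2.49), Rtp4 at 13.3 and 39.8 (1.58, 0.50 to 2.92), and Ifi35 at 15.2 and 34.8 (1.19, 0.17 to 2.44). Rtp4 was past 2-fold higher in 4 of the 6 classes where it was compared, among them macrophage-like cells at 5.87 and 18.3 CPM (1.64, 1.35 to 1.94) and B-like cells at 15.3 and 35.1 (1.2, 0.03 to 2.68). The lowest ratios in T-like cells were those of Eif2ak2, the kinase PKR, at 34.2 and 19.3 CPM (-0.83, -1.60 to 0.01), Gbp7 at 81.8 and 52.1 (-0.65, -1.14 to -0.14) and Ifih1, the RNA sensor MDA5, at 26.6 and 19.0 (-0.49, -1.33 to 0.46). The level of the neutrophil markers in T-like cells was 605 CPM without and 18453 with takinib, and with the neutrophil profile subtracted takinib Ifit3 was at 30.8 CPM and Irf7 at 31.9.

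**Figure D3:**
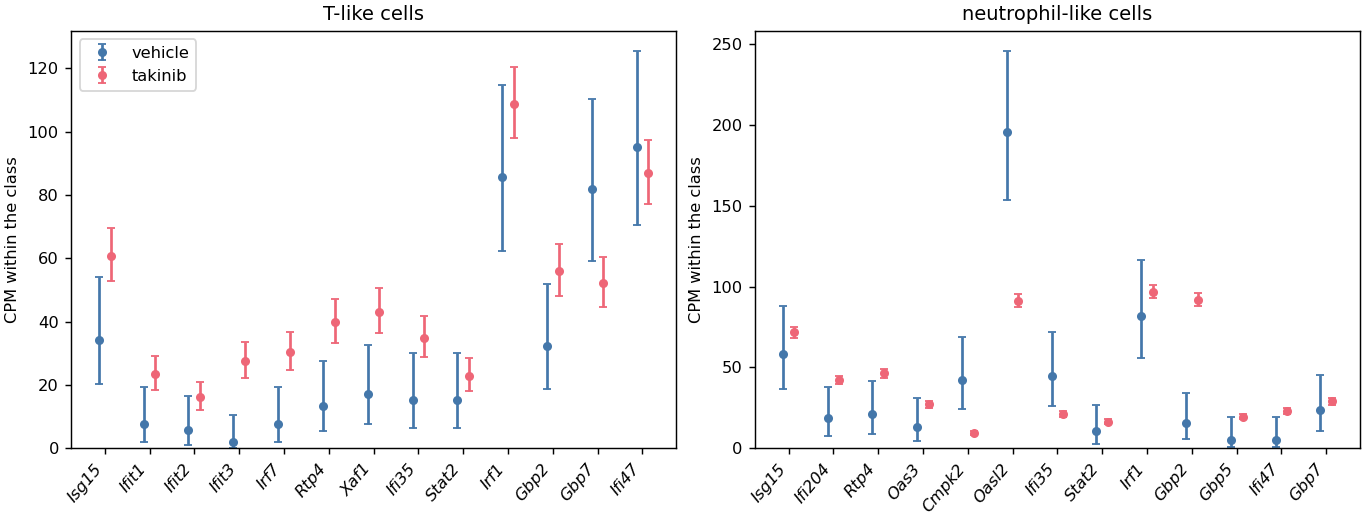
Level of 13 of the genes in T-like cells (left) and 13 in neutrophil-like cells (right), in CPM within the class, for vehicle (blue) and takinib (red) with 95% counting intervals. Vehicle intervals are wide because the class held 252 T-like and 271 neutrophil-like vehicle cells. In T-like cells Ifit3, Irf7 and Rtp4 are among the genes with intervals that do not overlap between libraries, as are Oasl2, Cmpk2 and Gbp2 in neutrophil-like cells.

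The oligoadenylate synthetase family, which senses double-stranded RNA, split by member and class. Oasl1 and Oasl2 were higher in takinib epithelial-like cells, at 6.26 and 18.5 CPM (1.56, 1.2 to 1.95) and at 8.35 and 16.7 (1.00, 0.67 to 1.34). With the neutrophil profile subtracted, takinib Oasl2 in epithelial-like cells was at 11.7 CPM, under 2-fold. Oasl2 lay the other way in neutrophil-like cells, at 196 CPM in vehicle and 91.3 in takinib (-1.10, -1.43 to -0.75). With the median gene of the class set to 0 that difference would be smaller by the 0.61 given above. Oas1a was lower in all 3 classes where it was compared, with 30.5 and 20.8 CPM in macrophage-like cells (-0.55, -0.71 to -0.38), where vehicle Xist cells had 15.8 and Y-linked cells 32.5. Against its Xist cells, then, the direction for Oas1a was the opposite. Those Xist cells were also spread differently over the macrophage-like clusters, as given above. Oas1a has close copies in the genome, and its counts are uncertain for that reason.

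The lowest ratio in neutrophil-like cells was that of Cmpk2, a mitochondrial nucleotide kinase, with 16 UMIs in vehicle and 237 in takinib, 42.3 and 9.57 CPM (-2.14, -2.87 to -1.31), and Ifi35 was at 44.9 and 21.2 CPM (-1.09, -1.78 to -0.30). Ifi204, a DNA sensor of a family with close copies, was at 18.5 and 42.1 CPM (1.19, 0.14 to 2.5), and Oas3 at 13.2 and 27.2 (1.04, -0.19 to 2.67). All vehicle values in this class rest on 378207 UMIs, and its 2 richest vehicle cells held 14.6% of the type I-like UMIs.

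In B-like cells Rsad2, which makes the antiviral nucleotide ddhCTP, had 2 UMIs in vehicle and 82 in takinib (5.09 and 28.3 CPM, 2.47, 0.57 to 5.54), of which 1 takinib cell held 18. Ifi204 had 3 and 94 UMIs there (7.63 and 32.4 CPM), and the lowest ratios were for Eif2ak2 (30.5 and 15.2 CPM), Gbp3 (25.4 and 12.7 CPM) and Stat2. Takinib B-like cells held 48230 CPM of neutrophil markers, the most outside neutrophil-like cells in the classes compared; with the neutrophil profile subtracted, takinib Gbp2 there was at 32.8 CPM and Rtp4 at 30.2, both under 2-fold, and Eif2ak2 at 15.3, also under 2-fold lower. In endothelial-like cells Ifi44 was at 49.3 CPM in vehicle and 9.96 in takinib (-2.31, -3.66 to -1.21), but at 17.8 CPM in the vehicle Xist cells, from 3 UMIs, and 60.8 in the Y-linked cells; the next lowest ratios were those of Eif2ak2 (53.6 and 34.2 CPM) and Stat2. The highest ratios in endothelial-like cells were for Zbp1, a sensor of Z-form nucleic acid (7.99 and 15.7 CPM), Gbp4 (35.2 and 64.0 CPM, 0.86, 0.30 to 1.41) and Igtp (17.9 and 31.3 CPM). In fibroblast-like cells the highest was Ifi204, at 47.8 and 81.8 CPM (0.77, 0.48 to 1.07), followed by Ifi47 (29.8 and 33.5 CPM) and Zbp1 (26.0 and 27.3 CPM).

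The type I-like genes not yet described stayed within 2-fold in every class where they were compared. Bst2, the membrane tether also called tetherin, was lower in 6 of 7 classes, though in endothelial-like cells the levels were nearly the same (274 and 273 CPM). It was at 139 CPM in vehicle and 90.8 in takinib fibroblast-like cells (-0.62, -0.83 to -0.41), and higher in B-like cells, at 40.7 and 76.1 (0.90, 0.17 to 1.74). Parp14, an ADP-ribosyltransferase, was also lower in 6 of 7, with 29.1 and 16.5 CPM in fibroblast-like cells (-0.82, -1.32 to -0.33) and 36.8 and 35.6 in macrophage-like cells. Trim30a, a ubiquitin ligase, was at 58.3 and 45.3 CPM in macrophage-like cells (-0.36, -0.48 to -0.25). Ddx58, the RNA sensor RIG-I, was at 47.6 and 25.8 CPM in neutrophil-like cells (-0.88, -1.56 to -0.12), and Oas2 was compared there alone, at 21.2 and 14.1 CPM.

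The IFN-gamma-like GTPases, which act on the membranes around intracellular microbes, were led by Gbp2. In neutrophil-like cells Gbp2 had 6 UMIs in vehicle and 2277 in takinib, 15.9 and 92.0 CPM, a ratio of 2.54 (1.41 to 3.98). Gbp5 and Ifi47 had 2 vehicle UMIs each there, and stood at 5.29 and 19.7 CPM (1.90, 0.03 to 4.95) and at 5.29 and 22.9 (2.12, 0.26 to 5.17). The remaining 3 IFN-gamma-like genes compared in neutrophil-like cells were not past 2-fold, so Gbp2, Gbp5 and Ifi47 carried the sum.

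Elsewhere Gbp2 was at 7.13 CPM in vehicle and 21.0 in takinib epithelial-like cells (1.56, 1.22 to 1.92), with vehicle Xist cells at 15.1 and Y-linked cells at 5.92. It was at 24.9 and 39.9 CPM in macrophage-like cells (0.68, 0.53 to 0.84), at 32.3 and 55.9 in T-like cells (0.79, 0.07 to 1.60) and at 22.9 and 51.0 in B-like cells (1.16, 0.19 to 2.31). Gbp2 was higher in takinib in 6 of 7 classes, the exception being fibroblast-like cells at 63.5 and 53.9 CPM. Its neighbour Gbp3 was lower in all 5 classes where it was compared, with 26.8 and 12.7 CPM in macrophage-like cells (-1.08, -1.27 to -0.88), where the vehicle Xist cells had 18.1. Gbp5 was also lower in macrophage-like cells, at 12.1 and 9.12 CPM (-0.41, -0.67 to -0.16). Genes of the same chromosome 3 cluster therefore lay on opposite sides in the same cells, with the caution that copies of similar sequence may share reads.

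In fibroblast-like cells the lowest ratios of the whole set were those of 2 immunity-related GTPases. Igtp was at 28.8 CPM in vehicle and 10.9 in takinib (-1.40, -1.98 to -0.85), and Iigp1 at 51.7 and 22.6 (-1.19, -1.60 to -0.80). In vehicle the Xist cells had more of both, 32.6 CPM of Igtp and 69.3 of Iigp1, than the Y-linked cells, 22.8 and 37.7. Both takinib levels lay below both vehicle groups. In epithelial-like cells 2 of the 9 IFN-gamma-like genes passed the level filter, Gbp2 and Irgm1, and the lowest ratios over the whole set were those of Irf9 (26.1 and 18.1 CPM), Stat2 and Ifi204 (15.9 and 15 CPM).

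Within classes, the clusters that each library filled differed. Most vehicle macrophage-like cells, 3443 of 4740, lay in the cluster led by H2-Ab1, against 371 of 3830 takinib cells, whereas the clusters led by Chil3 and Gpnmb held 1470 and 1164 takinib cells. The type I-like ratio was -0.17 (-0.25 to -0.08) within the H2-Ab1 cluster, -0.13 (-0.25 to -0.02) within the Ccl8 cluster, 0.07 (-0.07 to 0.22) within the Pclaf cluster, 0.22 (0.15 to 0.30) within the Chil3 cluster and 0.40 (0.21 to 0.59) within the Gpnmb cluster, the last with 60 vehicle cells. The ratio over all macrophage-like cells thus combined clusters on both sides of 0. In the Gpnmb cluster 8 of 25 genes were past 2-fold higher and 0 lower, against 9.93% and 3.55% of all genes, with Isg15 at 31.6 and 60.5 CPM and Gbp2 at 26.8 and 64.4.

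Neutrophil-like cells of vehicle were nearly all, 259 of 271, in the cluster led by Retnlg, which held 3030 of the 7987 takinib cells. Within that cluster the type I-like ratio was 0.16 (0.00 to 0.33) and the IFN-gamma-like ratio 1.06 (0.63 to 1.52), so the lower type I-like sum over the class was not seen inside it. In its vehicle cells 1 cell held 40 of the 331 type I-like UMIs. Without the richest cell of each library the type I-like sums were 875 CPM in vehicle and 1103 in takinib. There 6 of 28 genes were past 2-fold higher, against 7.48% of all genes, and 2 lower, against 31.8%. Gbp2 was at 18.0 CPM in vehicle and 126 in takinib in that cluster.

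The largest ratios of both sums within a cluster were in 114 vehicle and 81 takinib epithelial-like cells led by Spink4, Mptx1 and Muc2, Muc2 being the main mucin of goblet cells. The type I-like sum was 464 CPM in vehicle and 1048 in takinib (1.18, 0.98 to 1.37), and the IFN-gamma-like sum 118 and 293 (1.32, 0.93 to 1.71). Of 29 genes compared there, 17 were past 2-fold higher, against 18.0% of all genes, and 2 lower (Oas1a and Iigp1), against 21.1%. Rsad2 had 0 UMIs in vehicle and 37 in takinib, at least 18.9-fold higher against a floor of 3 vehicle counts. Gbp2 had 6 and 50 UMIs (7.76 and 98.9 CPM, 3.67, 2.45 to 5.19), Oasl1 had 4 and 30 (5.17 and 59.3 CPM), and Parp14 18 and 47 (23.3 and 93.0 CPM). The sum did not rest on 1 cell: without the richest cell of each library it was 447 CPM in vehicle and 996 in takinib. The cluster also had 209 CPM of S100a8 and S100a9 in vehicle and 24190 in takinib, and 1 vehicle cell with Xist and no Y-linked UMI against 58 with Y-linked UMIs; their part in the difference was not tested.

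The other epithelial-like clusters compared had smaller ratios. In the cluster led by Hmga2 the type I-like sum was 218 CPM in vehicle and 339 in takinib (0.64, 0.54 to 0.74). In the cluster led by Dmbt1 it was 348 and 367 (0.08, -0.01 to 0.16), and 1 takinib cell held 536 of its 4719 type I-like UMIs; without the richest cell of each library the sums were 338 and 326. A cluster left unnamed because its monocyte and dendritic cell marker scores were close, led by S100a4, Vcan and Ccr2, had a type I-like level of 1497 CPM in 141 vehicle cells, the highest in vehicle of the clusters compared, and 1028 in 828 takinib cells (-0.54, -0.68 to -0.40), where the Retnlg and Spink4 clusters were higher. In it 0 of 33 genes were past 2-fold higher and 9 lower, against 11.0% and 11.3% of all genes, among them Usp18 with 12 and 24 UMIs (36.4 and 6.33 CPM).

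**Figure D4:**
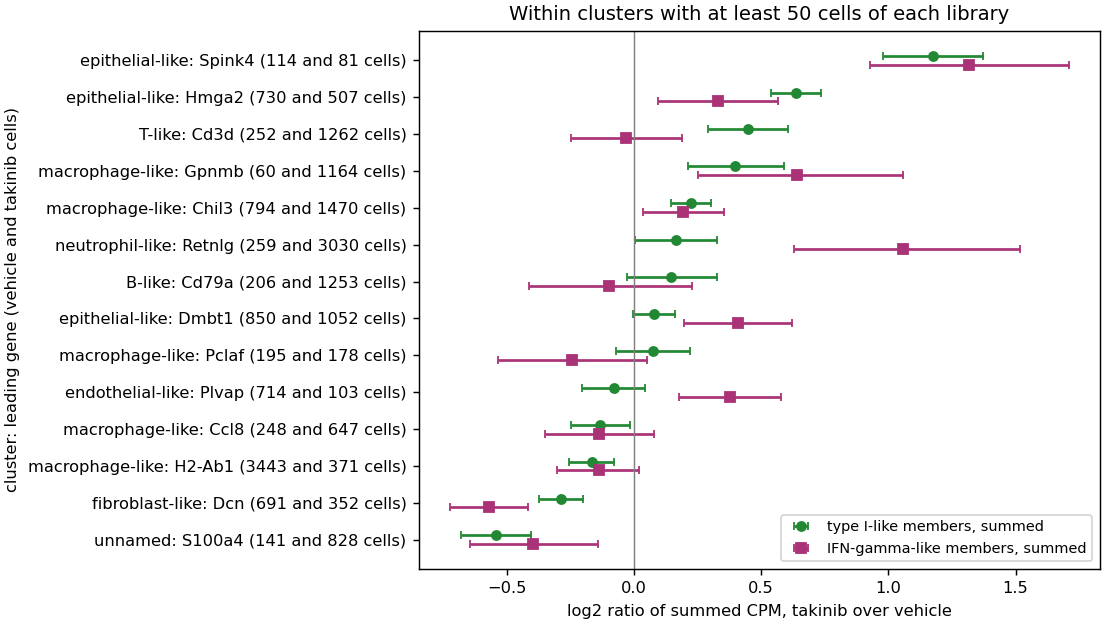
Log2 ratio of takinib over vehicle of the summed type I-like (green circles) and IFN-gamma-like genes (purple squares) within each cluster that held at least 50 cells of each library, with 95% counting intervals; labels give the class, the leading gene and the numbers of vehicle and takinib cells. The Spink4 cluster lies farthest to the right at 1.18 and 1.32, and the unnamed S100a4 cluster at -0.54 and -0.40.

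Single cells were compared after each was thinned to 1000 UMIs, so that depth was equal. The share with at least 3 type I-like UMIs was 3.17% (8 of 252; exact Clopper-Pearson interval 1.38 to 6.16) of vehicle T-like cells and 11.5% (145 of 1262; 9.78 to 13.4) of takinib T-like cells. Before thinning these shares were 17.1% and 33.1%. The share was 0.699% and 2.14% in epithelial-like, 3.73% and 4.75% in macrophage-like, 7.38% and 9.95% in neutrophil-like and 5.34% and 8.38% in B-like cells, and 6.66% and 3.98% in fibroblast-like cells. Endothelial-like cells had the highest vehicle share of the 7 classes, 75 of 714 cells (interval 8.35 to 13%), and a takinib share of 9.71% (10 of 103; 4.75 to 17.1). Among the 7 classes epithelial-like cells had the lowest share in both libraries, and their vehicle median of 5098 UMIs per cell before thinning was the highest of the 7. Cells with at least 10 type I-like UMIs of 1000 were 9 of 9558 in vehicle and 82 of 25183 in takinib, 38 of the latter neutrophil-like.

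**Figure D5:**
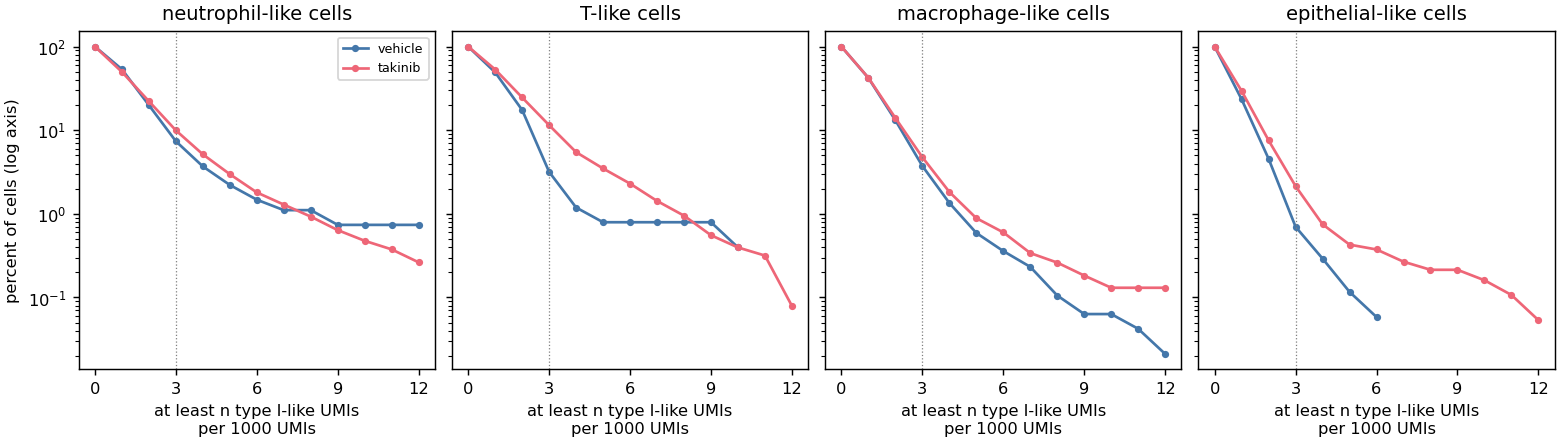
Percent of cells (log axis) with at least n type I-like UMIs after thinning to 1000 UMIs per cell, for vehicle (blue) and takinib (red) in 4 classes, drawn up to n of 12 and only where above 0; the dotted line marks 3 UMIs. At 3 UMIs the T-like curves stand at 3.17% and 11.5%, and the right ends of the curves rest on a few cells each.

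UMIs of both groups of genes were more often found together in some classes of either library. Of 795 takinib neutrophil-like cells with at least 3 type I-like UMIs, 12.2% (interval 10.0 to 14.7) also had at least 3 IFN-gamma-like UMIs, against 1.02% (0.796 to 1.27) of the other 7192. In takinib T-like cells the shares were 15.2% of 145 and 1.61% of 1117. In takinib macrophage-like cells they were 0.549% of 182 and 0.466% of 3648. Vehicle macrophage-like cells had 1.69% (3 of 177, interval 0.351 to 4.87) and 0.110% of 4563 (0.0356 to 0.256). In vehicle the shares were 17.4% (8 of 46; interval 7.82 to 31.4) and 1.40% of 645 in fibroblast-like cells, and 13.3% (10 of 75; 6.58 to 23.2) and 0.939% of 639 in endothelial-like cells. In takinib fibroblast-like and endothelial-like cells 0 of 14 and 0 of 10 cells with at least 3 type I-like UMIs had 3 of the other group, which allows shares of up to 23.2% and 30.8%. When the genes of the set and their pathway were allowed to shape the clusters, 1 cluster of 2 vehicle and 236 takinib cells formed whose 10 leading genes included 8 of the set, headed by Gbp2 with Rsad2 and Isg15 and, from outside the set, Cxcl10. Of its cells, 124 came from the unnamed cluster led by Chil1, which held 4312 takinib and 2 vehicle cells, and 58 and 46 from the neutrophil-like clusters led by Retnlg and Ccl4.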

How the data were processed

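The deposited files hold UMI counts per gene and barcode for both libraries. Per the file headers the count matrices were written by Cell Ranger 4 (vehicle) and Cell Ranger 6.1.1 (takinib), whereas the submitters' processing notes name Cell Ranger 2.1.1, STAR 2.0.4b, featureCounts 1.45 and mm10. The vehicle file lists 704261 barcodes and the takinib file 34158, the latter none under 500 UMIs. Kept cells are those past the filters given above. Scrublet doublet calls removed 314 vehicle and 1607 takinib cells, the latter as the top 6% of scores because the automatic threshold marked 0.00373%. Scanpy 1.11.5 clustered both libraries together (2000 variable genes, 30 components, 15 neighbours, Leiden resolution 1). UMIs were summed by class, and ratios carry exact conditional Clopper-Pearson 95% intervals that cover counting error only; a count of 0 was set to a floor of 3. The members and lists were chosen with earlier results of these data known. Genes with values are, per class, the 3 highest and 3 lowest ratios, with Isg15, Irf7, Irf1, Stat2 and Gbp2, and listed pathway genes, of which some are not reported here; other genes were named after their values were seen. The ratio and interval code was checked on simulated data. Alternatives covered filters, doublets, thinning, scaling, vehicle cell origin, subtraction of a neutrophil profile and clusters.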

Additional observations from a re-analysis of the deposited data

How the results depend on the processing

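No paired analysis was possible because each treatment has 1 library. All values here are log2 ratios of sums, type I-like unless IFN-gamma-like is named, and the causes of the shifts were not tested. With the interferon genes allowed to shape clusters, the ratios were 0.19 (IFN-gamma-like 0.11) in macrophage-like, 0.15 (1.25) in neutrophil-like and 0.15 in epithelial-like cells. After thinning to 1000 UMIs they were 0.094 (0.14) in macrophage-like and 0.53 (0.94) in epithelial-like cells. Against vehicle Xist cells they were 0.61 (0.26) in macrophage-like and 0.33 (-0.37) in epithelial-like cells; against Y-linked cells 0.083 in macrophage-like, 0.17 in neutrophil-like and 0.72 (0.25) in T-like cells, with an IFN-gamma-like ratio of 0.77 in epithelial-like cells. With the median gene at 0 they were 0.11 in macrophage-like, 0.40 (1.37) in neutrophil-like and 0.55 (0.58) in epithelial-like cells. At most 10% mitochondrial UMIs gave 0.51 in epithelial-like and 0.64 (0.54) in T-like cells, at least 2000 UMIs an IFN-gamma-like ratio of 0.28 in T-like cells, no doublet removal 0.47 and the subtraction 0.29 (0.22) in epithelial-like cells. Within macrophage-like clusters they were 0.075 (-0.24) for Pclaf, -0.17 (-0.14) for H2-Ab1, 0.22 (0.19) for Chil3 and -0.13 (-0.14) for Ccl8; the clusters of other classes, added after seeing the data, gave 0.16 for Retnlg, 0.077 for Dmbt1 and 0.64 for Hmga2. Counts of genes past 2-fold higher depended on low levels: with 10 CPM added to both libraries they were 0 in macrophage-like (3 as reported), 0 in epithelial-like (4), 2 in neutrophil-like (6), 3 in T-like (7) and 2 in B-like cells (4), and with a mean of at least 30 CPM 0, 0, 3, 1 and 1. In fibroblast-like cells the count past 2-fold lower (4) was then 0 and 1, and 2 with the median gene at 0; in neutrophil-like cells (3) it was 1 with the median gene at 0, and in endothelial-like cells the count higher (0) was 2. The single lower gene was lost in macrophage-like and B-like cells with 10 CPM added or a mean of 30, in B-like also with the median gene at 0, and in endothelial-like cells at a mean of 30. The T-like type I-like ratio kept its direction in 11 of 11 alternatives (0.42 to 0.72), the fibroblast-like in 12 of 12 (-0.34 to -0.09) and the neutrophil-like IFN-gamma-like in 9 of 9 (0.54 to 1.37). Neutrophil-like and B-like cells had too few cells for the 2 stricter filters and the Xist comparison, T-like cells for the Xist and B-like cells for the Y-linked one.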
